A study of Drosophila melanogaster with 6 samples.

Results

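The 6 genes described here are drd, the neighbours CG10140 and CG14109, and Peritrophin-15a, Peritrophin-15b and Peritrophin-A, taken from a table of 17807 Drosophila melanogaster genes. The first 3 were picked because their levels differed between the groups compared below, so for them that difference is a description and carries no test. The Peritrophin genes were picked by name as companions and are described in the same way.

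The peritrophic matrix is a sleeve of chitin fibres and chitin-binding proteins that lines the fly midgut and keeps food and microbes away from the epithelium. It is laid down largely at the cardia, the valve between foregut and midgut, and its proteins, the peritrophins and gut mucins, hold chitin through cysteine-rich domains. The gene drd (drop-dead) encodes a multi-pass membrane protein, and drd mutants are known for a defective or missing peritrophic matrix, poor passage of food and early adult death.

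RNA was sequenced from GFP-positive progenitors of the adult midgut, the intestinal stem cells and enteroblasts (ISC/EB), which do not themselves face the gut lumen as mature enterocytes do. All flies carried esgts, UAS-GFP, a temperature-sensitive driver active in cells that express esg. The 3 control libraries had no further transgene given in the labels, and the 3 H1 RNAi libraries also carried UAS H1 RNAi 1, which targets the linker histone H1, the protein that binds DNA between nucleosomes. The labels give 4 days of induction at 29 °C, with 70 guts and 50000 to 100000 sorted cells a replicate. The growth protocol gives another scheme, 1 day at 29 °C in flies 3 days old reared at 18 °C, and the sources used here do not settle which of them applies. Replicates are lettered A, B and C in each group, and no label says whether they came from separate crosses, so the spread between them may be partly technical.

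Values are TPM, a relative transcript abundance unit whose values adjust for the length of a gene and the size of a library, and sequencing depth is unknown. Between 7767 and 8316 genes reached 1 TPM in a library. The knockdown could not be checked, because all 23 copies of His1 were listed at 0 in all 6 libraries. Progenitor markers were abundant in every library, led by E(spl)mbeta-HLH. Of 10 such markers, 8 were matched to a row by symbol, while esg and Dl were not and are not described here. The 8 summed to 1369 to 1754 TPM in control and 1535 to 1703 TPM in H1 RNAi. The sum of 14 enteroendocrine markers was lower in H1 RNAi, at 1072 to 1575 TPM against 2373 to 3165 TPM. NPF made up most of it, at 891 to 1331 TPM against 1964 to 2616 TPM. Control B stood apart through the yolk protein gene Yp1, at 43.5 TPM against at most 0.83 TPM in any other library.

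The levels of drd were close to 0 in control progenitors and moderate in every H1 RNAi library. The gene was listed at 0.06, 0.12 and 0.06 TPM in control A, B and C and at 20.7, 22.4 and 22.3 TPM in H1 RNAi A, B and C. The groups did not overlap, and the H1 RNAi libraries differed from each other by no more than 1.08-fold. The means were 0.0800 ± 0.0346 TPM and 21.8 ± 0.944 TPM (SD, n = 3 each), a difference of 4.40 ± 0.15 (limma's SE) in log2(TPM + 1). Of the 8124 genes tested (at least 1 TPM in at least 3 libraries), 0.148% had a lower control mean than drd, while its H1 RNAi mean lay above that of 48.8% of them. Its place near the bottom of that set in control follows from the filter and is no finding. With all controls under 1 TPM, drd was among the tested genes only through its H1 RNAi values. It lies on chromosome X, 15125753 to 15137311 on the plus strand (BDGP6.54, dm6 coordinates), with 9 exons totalling 3280 bases, and no other annotated gene shares exon bases with it. Because these are bulk libraries, more cells with a transcript and more of it per cell cannot be told apart, here or below.

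CG10140 reached the highest level of the 6 genes. It was listed at 2.30, 1.17 and 0.33 TPM in control A, B and C, and at 40.4, 121 and 76.7 TPM in H1 RNAi A, B and C. Every H1 RNAi library was above every control, but the H1 RNAi values spanned 3.00-fold, with B highest and A lowest. The means were 1.27 ± 0.989 and 79.4 ± 40.5 TPM (SD, n = 3 each), a difference of 5.11 ± 0.46 in log2(TPM + 1). CG10140, whose product has predicted chitin-binding domains of the peritrophin type, was thus detected in control, where it stood above drd in each library. Its H1 RNAi mean exceeded that of 83.6% of tested genes.

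CG14109, for which no role is given here, was listed at 0.10, 0.09 and 0.05 TPM in control A, B and C. In H1 RNAi A, B and C it was at 24.2, 60.2 and 36.1 TPM, again with B highest and A lowest. The difference in log2(TPM + 1) was 5.16 ± 0.31, from means of 0.0800 ± 0.0265 to 40.2 ± 18.4 TPM. Within H1 RNAi, CG10140 was 1.67, 2.01 and 2.13 times CG14109 in A, B and C. The ratio of drd to CG14109 moved more, at 0.857, 0.371 and 0.619, since drd hardly varied among these libraries.

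These 3 genes were among the 7 largest increases in log2(TPM + 1), CG14109 ranking 5, CG10140 ranking 6 and drd ranking 7 of 8124. Of the genes tested, 2.83% passed an adjusted p of 0.05 (limma, Benjamini-Hochberg), 2.28% as higher in H1 RNAi and 0.554% as lower, and 24.3% had H1 RNAi values all above the control values. That 3 of the 4 tested members were called follows from how they were chosen. Of these, drd and CG14109 were also tested only through their H1 RNAi values, all their controls being under 1 TPM. Only 5 genes of the table were under 0.5 TPM in every control and at 10 TPM or more in every H1 RNAi library, limits set after the values were seen. They were drd, CG14109, dysf (a tracheal transcription factor), exp and fs(1)M3 (an eggshell gene), on chromosomes X, 3L, 3R, 2R and X. The opposite pattern was found for 0 genes.

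**Figure D1:**
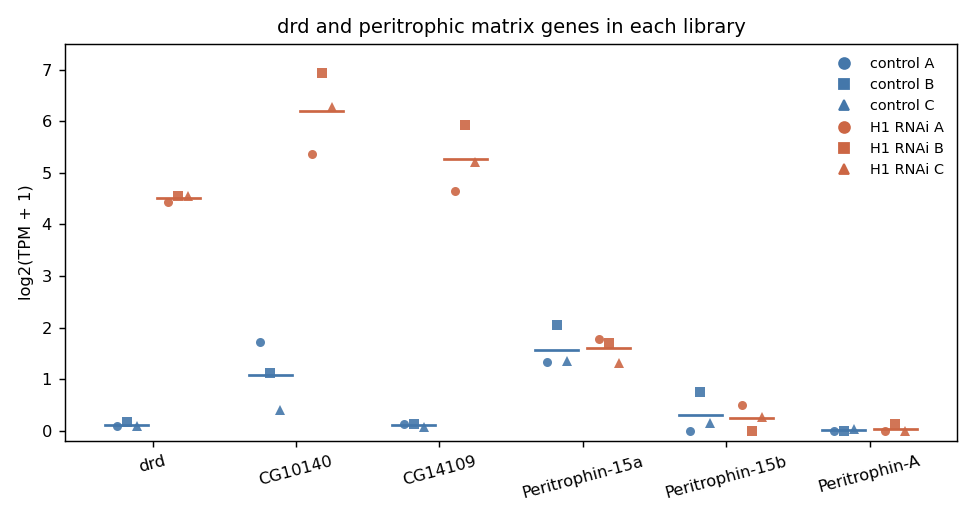
Levels of the 6 genes as log2(TPM + 1) on the vertical axis, with 1 point per library (blue control, orange H1 RNAi, shape for the replicate letter) and a bar at the group mean of 3 libraries. The H1 RNAi points of drd, CG10140 and CG14109 lie far above the control points, those of drd almost on top of each other, while the groups of the 3 Peritrophin genes overlap.

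The classical peritrophin genes did not share this pattern. Peritrophin-15a, a small chitin-binding protein of the matrix, was the only one of the 3 at 1 TPM or more. It was listed at 1.51, 3.14 and 1.54 TPM in control A, B and C and at 2.43, 2.27 and 1.5 TPM in H1 RNAi A, B and C. The groups overlapped, and the difference in log2(TPM + 1) was 0.03 ± 0.26. Peritrophin-15b was at 0, 0.69 and 0.11 TPM in controls A, B and C and at 0.41, 0 and 0.21 TPM in the H1 RNAi libraries A, B and C, with overlap and no library at 1 TPM. Peritrophin-A was listed at 0.03 TPM in control C, 0.09 TPM in H1 RNAi B and 0 in the other 4 libraries. Peritrophin-15b and Peritrophin-A did not pass the filter on low values and were not fitted. Differences in log2(TPM + 1) were -0.05 for Peritrophin-15b and 0.03 for Peritrophin-A.

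Peritrophin-15a (2L, 8395665 to 8396096) and Peritrophin-15b (2L, 8394446 to 8394940) lie side by side on the minus strand, and Peritrophin-A (X, 20244647 to 20248203) on the plus strand. The exons of Peritrophin-15b share all 428 of their bases with asRNA:CR45343 on the other strand. The sources used here do not say if strand was used in counting, so their reads may not be separable. The antisense gene itself did not exceed 0.05 TPM in any library.

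Position links CG10140 and CG14109. CG10140 (3L, 13439317 to 13440470, minus strand, 4 exons) and CG14109 (3L, 13440910 to 13442420, plus strand, 3 exons) point away from each other, with 439 bases between them. Downstream of CG14109, 173 bases on and on the same strand, begins cmb (combover), known from planar cell polarity of wing hairs. On the other side, 307 bases from CG10140, ends CG10725, which also encodes a predicted chitin-binding protein. The exons of CG14109 and cmb do not overlap (0 bases shared).

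Transcripts of cmb were higher in H1 RNAi as well, from a clearly expressed baseline. The gene was listed at 12.4, 13.4 and 10.3 TPM in control A, B and C and at 34.9, 52.5 and 39.5 TPM in H1 RNAi A, B and C. Every H1 RNAi library was above every control, and B was again highest and A lowest, as for CG10140 and CG14109. The difference in log2(TPM + 1) was 1.72 ± 0.17 (adjusted p = 0.00666, limma). The call held under each of the 14 alternatives tried, with adjusted p of 0.00624 to 0.0432.

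CG10725 was too low to be tested. It was at 0, 0.14 and 0 TPM in control A, B and C and at 0.45, 1.41 and 0.57 TPM in H1 RNAi A, B and C. The H1 RNAi values lay above the control values, as for 24.3% of tested genes. All but that of H1 RNAi B were under 1 TPM, where the error is unknown, so their order within H1 RNAi is not read. Next to it CG10154, a further predicted chitin-binding gene, did not exceed 0.08 TPM in any library.

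Farther along, CG10089 was listed higher in each H1 RNAi library than in each control. It lies 23131 bases beyond CG14109 and was listed at 0.75, 0.43 and 0.24 TPM in control A, B and C and at 3.33, 3.45 and 2.73 TPM in H1 RNAi A, B and C. The difference in log2(TPM + 1) was 1.51 ± 0.21. With all controls under 1 TPM the gene passed the filter only through its H1 RNAi values, so its call in the fit, which was lost without control C or any single H1 RNAi library, is no support for a rise. JMJD7, a Jumonji-domain gene that shares 59 bases with the end of cmb on the other strand, had means of 11.1 ± 0.450 TPM (control) and 15.5 ± 0.993 TPM (H1 RNAi; SD, n = 3 each, adjusted p = 0.0716, limma). CG10116 was at 16.4 ± 4.83 and 30.6 ± 8.003 TPM (adjusted p = 0.114), and CG10738 was below the filter, its controls spanning 0.23 to 0.75 TPM and its H1 RNAi libraries 0.84 to 1.47 TPM.

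Of the 10 nearest annotated genes around this pair, 5 on each side, 4 were tested, all on the CG14109 side. Calls were made for cmb and CG10089, both higher. Since CG10089 entered the test only through its H1 RNAi values, cmb is the 1 call that the filter did not favour. Of all tested genes 2.28% were called higher.

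Around drd, 4 of the 10 nearest annotated genes were tested. Of these, 0 were called higher and 0 lower, where 2.83% of all tested genes were called in either direction. Whether the surroundings of drd and of CG10140 differ was not tested. The median difference in log2(TPM + 1) of the neighbours of drd was -0.12. The closest, RpL37-1, a ribosomal protein gene 558 bases away on the other strand, was at 5116, 4298 and 5073 TPM in control A, B and C and at 4670, 4263 and 4523 TPM in H1 RNAi A, B and C, with overlapping groups. On the upstream side Cyp4s3, 9210 bases away, did not exceed 0.51 TPM in any library, and Rab3-GEF was at 1.67 ± 0.0971 and 0.820 ± 0.246 TPM (SD, n = 3 each, adjusted p = 0.139, limma). The neighbours of the Peritrophin-15 pair and of Peritrophin-A gave 2 and 4 tested genes with 0 calls. Over all 14 tested neighbours of the 4 loci, 2 passed the adjusted threshold, CG10089 among them. An unadjusted p under 0.05 was found for 5 of the 14, beside 1935 of all 8124 tested genes.

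**Figure D2:**
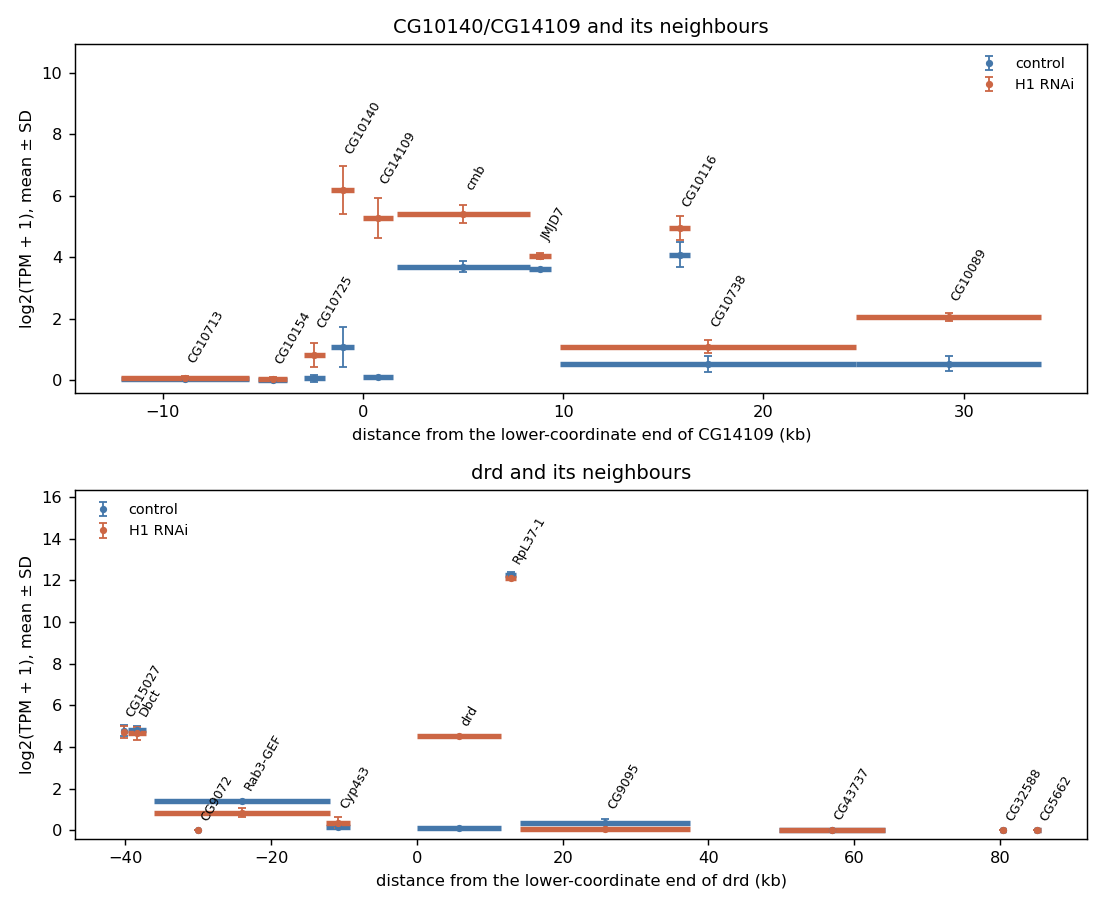
Mean log2(TPM + 1) of CG10140, CG14109 and drd and their nearest annotated genes in control (blue) and H1 RNAi (orange) against distance in kb, with horizontal bars for the extent of each gene and error bars for the SD over 3 libraries. Orange means lie above blue from CG10725 to CG10089, though the values of CG10116 overlap between groups and CG10725 and CG10738 were below the filter. Of all tested genes 24.3% had H1 RNAi values all above control. Near drd the colours separate most at drd itself. The pair of tRNA genes near CG10140, listed at 0, is not drawn.

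Genes with products like those of the peritrophic matrix were examined next, since drd and CG10140 are tied to it by role or by domain. The list of 63 peritrophin-like, mucin and matrix genes leaves out the 6 genes above. Of these, 38 were under 1 TPM in every library and 13 were tested. With limma 0 were called higher and 0 lower, where 2.83% of all tested genes were called in either direction. An unadjusted p under 0.05 was found for 1 of the 13, beside 1935 of all 8124 tested genes. Ordinary moderation also called 0. The median difference in log2(TPM + 1) was 0.25, beside 0.14 over all tested genes.

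The most evenly expressed was Mur2B, a mucin-related gene, at 39.4, 42.7 and 37.9 TPM in control A, B and C and 35.1, 30.7 and 35.8 TPM in H1 RNAi A, B and C. Its H1 RNAi values all lay below the control values, as for 6.45% of tested genes, with a difference in log2(TPM + 1) of -0.23 ± 0.10 (adjusted p = 0.230, limma). CG17145 was at 10.7 ± 3.05 and 14.3 ± 6.15 TPM (SD, n = 3 each) and CG33985 at 8.64 ± 2.60 and 10.7 ± 2.48 TPM, with overlapping groups. In the other direction, CG42728 had all its H1 RNAi values above control, at 1.37 to 1.5 TPM against 0.72 to 1.26 TPM (adjusted p = 0.345, limma), as for 24.3% of tested genes. CG42397 had the smallest adjusted p of the list, 0.169 (limma), with means of 2.39 ± 1.75 and 6.23 ± 2.24 TPM and overlapping groups. CG14645 had the highest mean through 1 library, being at 364 TPM in H1 RNAi C and at 0.68 to 9.33 TPM in the other 5. Crys, which encodes drosocrystallin, a protein of the adult matrix, was at 3.28 TPM in control B and at 0.61 TPM or less elsewhere. Control B was the highest library for 25 of the 60 listed genes that were above 0 anywhere, among them CG7298 at 8.49 TPM against 0 to 2.55 TPM.

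**Figure D3:**
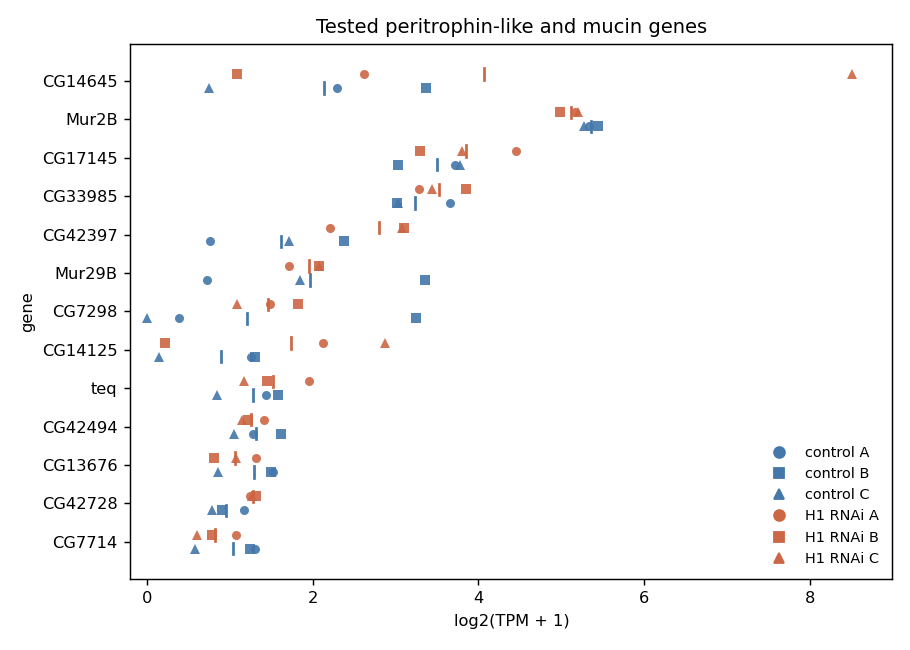
Levels of the 13 tested peritrophin-like and mucin genes as log2(TPM + 1) on the horizontal axis, 1 gene a row, with points per library and a tick at each group mean. Blue and orange points mix in most rows, and single libraries stand out in CG14645 (H1 RNAi C) and in Mur29B and CG7298 (control B).

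Chitin itself, the fibre of the matrix, depends on a chitin synthase and on enzymes that make its sugar precursor. Chs2, the chitin synthase of the gut, was expressed in all libraries, at 51.2, 30.7 and 51.4 TPM in control A, B and C and at 44.5, 32.2 and 33.3 TPM in H1 RNAi A, B and C. The groups overlapped, and the difference in log2(TPM + 1) was -0.25 ± 0.23 (adjusted p = 0.550, limma). The synthase of cuticle and trachea, kkv, was listed at 0 in all 6 libraries. Enzymes of the precursor UDP-N-acetylglucosamine were also expressed in both groups, with Gfat2 at 70.6 ± 23.9 and 59.9 ± 7.20 TPM, nst at 49.8 ± 11.7 and 47.3 ± 4.86 TPM and mmy at 27.9 ± 3.39 and 25.6 ± 2.30 TPM (control first; SD, n = 3 each). For each of these 3 the groups overlapped.

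Among chitin-related genes Cht2 rose. Cht2, a chitinase, which cuts chitin, was at 13.5, 15.7 and 16.1 TPM in control A, B and C and at 58.3, 55.9 and 60.9 TPM in H1 RNAi A, B and C. The groups were far apart and each was tight, with a difference in log2(TPM + 1) of 1.88 ± 0.10 (adjusted p = 3.55e-04, limma) and adjusted p of 2.51e-04 to 0.00602 over the alternatives. A second call was that of exp, needed with kkv for chitin deposition in the trachea, at 0, 0.28 and 0 TPM in control A, B and C and at 46.7, 61.0 and 60.7 TPM in the H1 RNAi libraries A, B and C. All its controls were under 1 TPM, so exp passed the filter only through H1 RNAi and its call supports nothing. It was also known when the list was drawn up. Its paralogue reb was listed at 0 in all 6 libraries. Of 33 genes of chitin synthesis, modification and breakdown with a row, 15 were tested, of which 2 were called higher, 0 lower and 13 neither, where 2.28% of all tested genes were called higher. The median difference in log2(TPM + 1) was -0.05, beside 0.14 over all tested genes. Leaving exp aside, Cht2 was the only call of this list. The call of Cht2 was kept with each library left out in turn and under TMM scaling and quantile normalization.

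**Figure D4:**
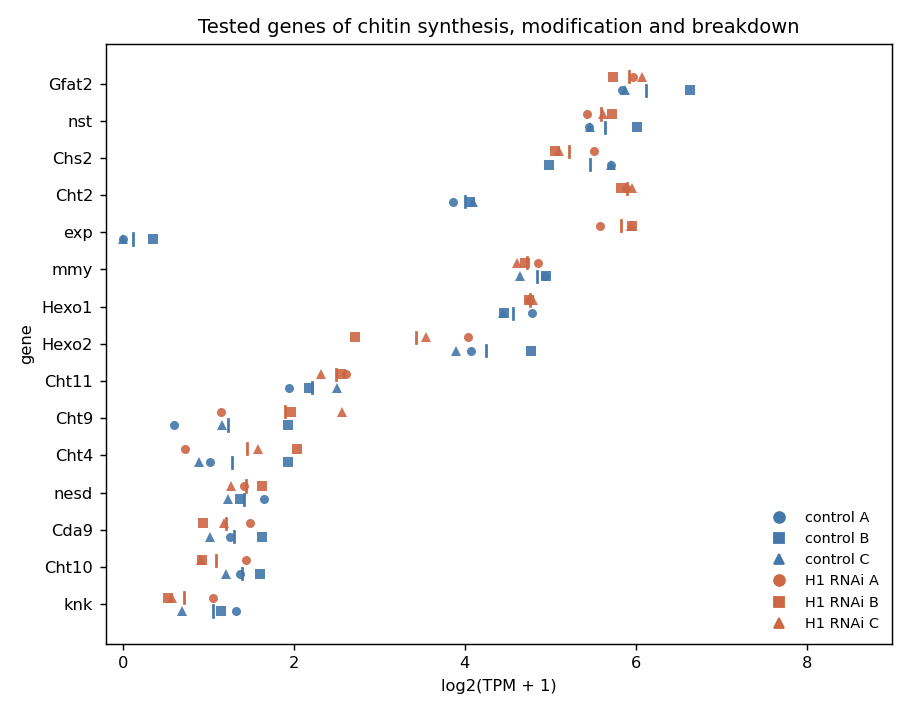
Levels of the 15 tested genes of chitin synthesis, modification and breakdown as log2(TPM + 1) on the horizontal axis, with points per library and a tick at each group mean. Only exp and Cht2 show orange points clearly to the right of blue, and Chs2, Gfat2 and nst sit at similar levels in both groups.

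Genes of the cardia and foregut boundary, where the matrix is largely laid down, gave no calls. Of 6 such genes, 3 (hh, dve and bowl) were tested with limma and 0 passed, where 2.83% of all tested genes were called in either direction. Ordinary moderation also gave 0 calls. An unadjusted p under 0.05 was found for 1 of the 3, beside 1935 of all 8124 tested genes. That gene was bowl, a zinc-finger factor of the foregut and hindgut, with means of 4.52 ± 1.25 TPM (control) and 8.95 ± 0.964 TPM (H1 RNAi; SD, n = 3 each, adjusted p = 0.0707, limma). All H1 RNAi values of bowl lay above control, at 8.04 to 9.96 against 3.37 to 5.86 TPM, as for 24.3% of tested genes. The midgut homeobox gene dve was at 32.2 ± 6.86 and 39.7 ± 8.80 TPM (adjusted p = 0.449). The signalling gene wg, which marks the foregut boundary, did not exceed 0.06 TPM in any library. Pgant4, a glycosyltransferase needed for secretion of the matrix, was at 3.08 TPM in H1 RNAi C and at 0.54 TPM or less in the other 5 libraries.

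Among markers of other cells, the tracheal list had sums of 11.1 to 21.1 TPM for control and of 73.3 to 93.5 TPM for H1 RNAi. That difference lay in dysf, which passed the filter only through H1 RNAi. The control sums were mostly btl, at 9.64 to 19.7 TPM in control and 8.51 to 16.5 TPM in H1 RNAi, with overlapping groups. Of the 11 genes, 8 were under 1 TPM in every library, including trh, Gasp and obst-A. Among them Osi6 and Osi7 were listed at 0. The ovary and follicle cell list summed to 3.11 to 93.0 TPM in control, the top being control B, and to 17.7 to 31.02 TPM in H1 RNAi, where fs(1)M3 made up most of it. Muscle markers, led by how, summed to 13.9 to 19.9 TPM and 14.5 to 17.3 TPM. Enterocyte markers had sums of 455 to 1328 TPM (control) and 679 to 1762 TPM (H1 RNAi), the highest of the list being Myo31DF, a brush border myosin, at 410 ± 102 and 437 ± 25.9 TPM (SD, n = 3 each). In H1 RNAi A, B and C these sums were 679, 1762 and 1124 TPM, highest in B and lowest in A as for CG10140 and CG14109. They spanned 2.60-fold, beside 3.00-fold for CG10140, 2.49-fold for CG14109 and 1.08-fold for drd, and the control sums were 455, 1328 and 833 TPM in A, B and C. Most enterocyte markers had the order B, C, A in H1 RNAi, such as alphaTry at 64.8, 416 and 140 TPM (A, B, C). Myo31DF, Amy-p and LManVI were instead highest in C, Myo31DF being at 412, 435 and 463 TPM in A, B and C. Of 14 tested enteroendocrine markers 3 were called lower and 0 higher, where 0.554% of all tested genes were called lower and 2.28% higher. The 3 were NPF, Tk and tap, with log2(TPM + 1) differences of -1.03, -1.502 and -1.13 (adjusted p of 0.0345, 0.0452 and 0.0463, limma). All H1 RNAi values of these 3 and of amon, pros, Rab3 and Syt4 lay below control, as for 6.45% of tested genes. Of the 14 markers, 10 had an unadjusted p under 0.05 (limma), beside 1935 of all 8124 tested genes. In the other direction, all H1 RNAi values of CCHa2 and Mip lay above control, as for 24.3% of tested genes. They were 2.75 to 4.19 against 0.31 to 1.87 TPM and 7.12 to 15.3 against 2.28 to 5.64 TPM (adjusted p = 0.104 for each, limma). Without control B 4 of the 14 markers were called, and without any other single library 0. Hemocyte markers had sums of 5.43 to 8.88 TPM (control) and 2.22 to 3.79 TPM (H1 RNAi). They were led by lz, a Runx factor at 3.42 to 3.82 TPM and 0 to 0.05 TPM, called lower but tested only through its control values, while Hml, NimC1, He and eater did not exceed 0.17 TPM. Fat body markers, led by Lsp1gamma, had sums of 4.03 to 6.48 and 5.24 to 6.27 TPM, and those of Malpighian tubule and hindgut, led by Alp4, 2.03 to 8.46 and 1.38 to 3.31 TPM. The part of these marker differences in the levels of the 3 genes was not tested.

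The gene nearest to drd in profile, by Euclidean distance in log2(TPM + 1) over the 6 libraries among tested genes, was fs(1)M3 at a distance of 0.768. It was followed by CG14109 at 1.56, CG18063 at 2.28, exp at 2.30 and AGO3, a Piwi-family gene, at 2.67. For CG14109 the nearest were exp (1.21), dysf (1.53), drd (1.56), fs(1)M3 (1.57) and asRNA:CR45600 (2.20). For CG10140 they were CG6912 (1.63), asRNA:CR45600 (1.66), exp (2.20), dysf (2.23) and its own neighbour CG14109 (2.50). The control level of CG10140, over 1 TPM in A and B, set it apart from CG14109, and CG6912 shares that low baseline, at 1.02, 0.91 and 0.45 TPM in control A, B and C. These likenesses rest on 6 libraries that fall into 2 groups, so any gene near 0 in control and at a like level in H1 RNAi comes out close.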

How the data were processed

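The authors deposited TPM per gene and library, rounded to 2 decimals. Per the submitters' processing notes, bcl2fastq and dm6 were used; aligner, counting tool and annotation: not given in the sources used here. RNA was purified with the PicoPure kit and libraries made with a stranded mRNA kit, per the labels' protocols. TPM values are shares of a total, so one large change moves the rest, and counting error cannot be recovered. Columns were matched to libraries through the sample descriptions.

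The 8124 genes that reached 1 TPM in 3 or more libraries were fitted as log2(TPM + 1) with limma 3.58.1 in R 4.3.3, with trend and robust moderation, and p-values were adjusted by Benjamini-Hochberg over all of them at 0.05. The scale understates changes of genes near 1 TPM. The fit was also run on simulated data, with changes put only into genes above 5 TPM in control. That run does not cover genes near 0 in control, such as drd and CG14109, and its outcome is not given here. Symbols and positions came from Ensembl release 115 (BDGP6.54, dm6 coordinates). Summaries used Python 3.11.15 with pandas 2.3.3.

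The members and lists were chosen with earlier results of these data known. Text names all members, called genes of each matrix, chitin, cardia and neighbour list (up to 6), up to 4 others by mean TPM, the marker of highest mean TPM per cell type, and the 5 nearest profiles of each of 3 members. Genes named beyond this rule, such as CG10725, CG10154, CG10738, JMJD7, CG10116, Cyp4s3, Rab3-GEF, Crys, CG7298, CG42397, CG42728, Tk, tap, CCHa2, Mip, kkv, reb, wg and Pgant4, were chosen for position, role or value after values were seen. Planned descriptions of protein relatives and promoter motifs were not made, as no sequence table was used here.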

Additional observations from a re-analysis of the deposited data

How the results depend on the processing

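The differences of drd, CG10140 and CG14109 kept their direction under all 14 alternatives, and their size followed the pseudocount. With a pseudocount of 0.1 they were 6.94, 6.04 and 7.72 in log2(TPM + pseudocount), and with 5 they were 2.40, 3.64 and 3.07. For drd, TMM scaling gave 4.33 and quantile normalization 4.12. Peritrophin-A moved to 0.18 with a pseudocount of 0.1. Without single libraries the differences were 4.38 to 4.43 for drd, 4.74 to 5.52 for CG10140 and 4.82 to 5.46 for CG14109, and -0.09 to 0.27, -0.20 to 0.18 and -0.01 to 0.05 for Peritrophin-15a, Peritrophin-15b and Peritrophin-A.

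The number of genes called among all tested was 230, and 90 with no filter, 141 with TMM scaling, 146 with quantile normalization and 29 to 450 without single libraries (82, 450 and 34 on leaving out control A, B and C, and 57, 29 and 37 on leaving out H1 RNAi A, B and C). The median difference of all tested genes, 0.14, was 0.01 with TMM scaling. Called neighbours fell from 2 to 1 with a filter at 5 TPM, which removes CG10089 from the test, and were 1 to 2 without single libraries. By alternatives chosen after seeing the data, the 3 enteroendocrine marker calls were 0 with no filter, 2 to 4 under the other settings and 0 to 4 without single libraries. Calls of the matrix, chitin and cardia lists stayed at 0, 2 and 0 throughout, the chitin calls including exp, which the filter favoured. Without control B those 3 counts and the 2 called neighbours were also the same.

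Deviations of same-lettered libraries correlated at 0.40 (A), 0.14 (B) and 0.09 (C), and those of libraries with different letters at -0.28 to 0.17. Control B correlated best with H1 RNAi C (0.17), while controls A and C correlated best with the H1 RNAi library of their own letter. These few values do not settle whether the letters pair the libraries. With the letter as a block 142 genes were called, and no count of the lists or neighbours changed. Depth is unknown, so values under about 1 TPM carry an error that cannot be stated.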

Other observations

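A group of genes was high in H1 RNAi C alone. By a rule set after the values were seen (at least 10 TPM and at least 20 times every other library), 5 genes were found in H1 RNAi C, 5 in control B, 1 in H1 RNAi B and 0 in each of the other 3 libraries. Those of H1 RNAi C were CG34324 at 436 TPM against at most 3.44 TPM elsewhere, CG14645 at 364 TPM against 9.33 TPM, CG3906 at 79.7 TPM against 1.68 TPM, the mucin gene Muc68D at 40.1 TPM against 0.24 TPM, and CG43673 at 25.3 TPM against 0.60 TPM. CG14645 and Muc68D belong to the list of peritrophin-like and mucin genes. In the same library drd, CG10140 and CG14109 lay between the values of H1 RNAi A and B. The genes of control B were Yp1, Yp2, TotC, CG4716 and Tdh, at 19.4 to 43.5 TPM against at most 0.91 TPM elsewhere. The gene of H1 RNAi B was the lysozyme gene LysC, at 17.4 TPM against 0.37 TPM.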
